A study of Mus musculus with 9 samples.

Results

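Within the exon 5 form of the mRNA export protein Chtop, crosslinked RNA was compared between the coding sequence (CDS) and the 3' untranslated region (3' UTR) of the same gene. The measure was the number of iCLIP counts per base in each part, in the 3 immunoprecipitates of that isoform. Genes entered when these 3 libraries together held 50 or more counts and when the lengths of both parts were known, which left 6579 of 22442 genes. A further 455 genes reached 50 counts but had no known 3' UTR length. Of the 6579 genes, 5705 carried a symbol and 874 did not. The same rule gave 6802 genes in the isoform lacking exon 5 and 1802 genes in the inputs. At the threshold, Acaa1a, Armt1 and Bcat2 stood just inside with 50 counts each, and Aar2, B4galt3 and 2210016L21Rik just outside with 49 each.

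All libraries came from N2a cells, a mouse neuroblastoma line, built as Flp-In rtTA lines so that doxycycline switches on an inserted cDNA. The first group expressed FLAG-Chtop with exon 5, the next FLAG-Chtop without exon 5, each as 3 anti-FLAG immunoprecipitates that the labels call biological replicates. The reference was 3 size-matched inputs, cut from the gel without an antibody step, using 2% of the lysate. Each input was taken from another line, with input 1 made of cells that carry the cDNA without exon 5, input 2 of cells with the exon 5 cDNA and input 3 of FLAG-GFP cells. All cells received doxycycline at 2 µg/mL for 24 hours and ultraviolet light of 254 nm at 0.15 J/cm2. The protein was thus tagged and expressed from an added cDNA. The libraries of the exon 5 isoform held 783868, 851442 and 1328423 counts, against 75504 to 173342 counts in the inputs. Of 19 neuroblast markers, 13 were in the tables and all 13 had counts in the exon 5 libraries, summing to 1704 to 2216 CPM (counts scaled to the library total, so that each library has the same sum). Of 16 markers of other cell types, 6 were in the tables, 3 had counts, and their sum was 9.40 to 14.3 CPM, with Cdh5, Col1a2 and Alb at 0.

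Chtop is an arginine-rich protein that joins the TREX complex, which is loaded on mRNA during transcription and splicing and hands it to the export receptor Nxf1. It is methylated on arginines, and it also binds proteins of the methylosome. iCLIP marks RNA bases that lie against the protein by ultraviolet crosslinking, and the counts here say in which annotated part of an mRNA those crosslinks lie. A gene's level in a library reflects both how much of its RNA there is and how much of it is bound, whereas a ratio between parts of the same gene sets its amount aside when both parts sit on the same RNA.

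Counts per base were higher in the CDS than in the 3' UTR for most genes of the exon 5 isoform. The CDS held 66.1%, 67.0% and 68.5% of all counts in the 3 libraries, and the 3' UTR held 30.9%, 30.1% and 27.8%. In the inputs, the CDS held 47.6%, 46.9% and 45.4%, and the 3' UTR 48.9%, 50.2% and 51.6%. The shares of the CDS in the immunoprecipitates lay above those of all inputs.

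With the 3 exon 5 libraries summed, the CDS was denser in 4132 of 6579 genes (62.8%). The median log2 ratio of CDS over 3' UTR counts per base was 0.52, a 1.43-fold excess in the CDS, and the quartiles lay at -0.57 and 1.83. In 2836 genes (43.1%) the parts lay within 2-fold of each other. An excess of more than 4-fold in the CDS was found in 1509 genes (22.9%), and an excess of more than 4-fold in the 3' UTR in 505 genes (7.68%). The CDS was denser in all 3 libraries for 2041 genes (31.0%) and the 3' UTR for 794 (12.1%), against 25.6% and 10.8% of all 8622 genes tested.

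Per library, the median log2 ratio over the 6579 genes, with 0.5 added to each count, was 0.49, 0.48 and 0.77 in the exon 5 isoform. It was 0.54, 0.50 and 0.75 in the isoform lacking exon 5 and -0.37, -0.30 and -0.33 in the inputs. The exon 5 libraries all lay above the inputs and overlapped with those of the other isoform. The mean was 0.58 ± 0.16 in the exon 5 isoform and -0.33 ± 0.035 in the inputs (SD, n = 3 each), a difference of 0.92, with an exact two-sided permutation p of 0.1, the smallest that 3 against 3 allows, and 0.2 adjusted over the 2 comparisons. Against the isoform lacking exon 5 (0.60 ± 0.14, SD, n = 3), the difference was -0.014 (exact permutation p = 0.8), smaller than the SD within either isoform. That test did not pair libraries by replicate number, and replicate 3 had the highest median in both isoforms.

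Depth touches the input values. Of the 6579 genes, 3323, 1620 and 4429 had no count in either part in input replicates 1, 2 and 3, against 140 to 182 in the exon 5 libraries, and a gene with no count enters with the ratio of its part lengths alone (median log2 of -0.22). Among genes with 10 or more counts in a library, the medians were 0.53, 0.54 and 0.79 in the exon 5 isoform and 0.045, -0.041 and -0.39 in the inputs. Over genes with 10 counts in each of the 9 libraries, the mean was 0.74 in the exon 5 isoform and -0.20 in the inputs. With counts and bases summed over genes, it was 0.88 and -0.37. Leaving Lars2 and D10Wsu102e out of that sum, genes whose 3' UTR took many of the input counts, gave 0.87 and -0.15. The exon 5 isoform lay above the inputs by each of these measures.

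**Figure D1:**
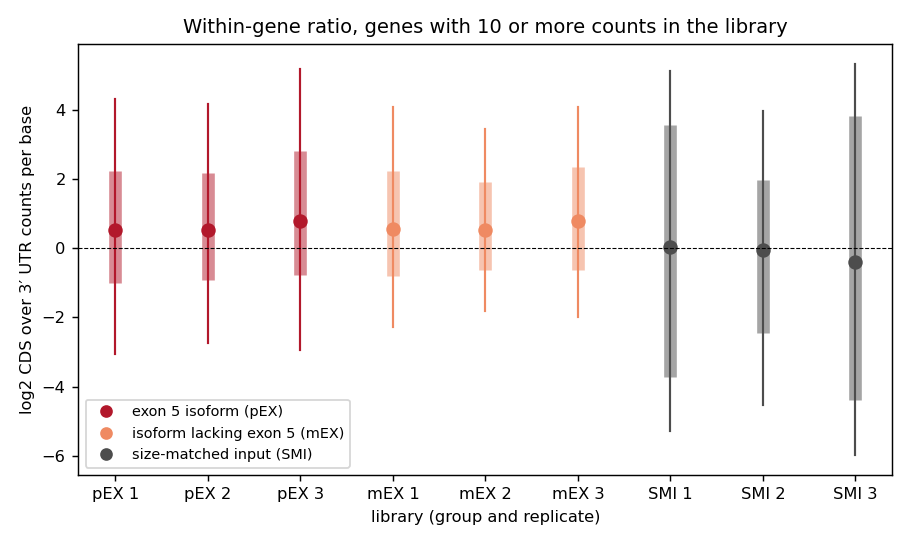
Log2 ratio of CDS over 3' UTR counts per base (y axis) in each of the 9 libraries (x axis), for genes with 10 or more counts in that library; points are medians, thick bars span the quartiles and thin lines the outer deciles. Medians of the exon 5 isoform (0.53, 0.54 and 0.79) lie with those of the isoform lacking exon 5 and above the inputs, whose bars are wider.

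For single genes, the test compared the parts across the 3 libraries (edgeR's quasi-likelihood test, Benjamini-Hochberg adjustment over 8622 genes, threshold 0.05). It called 272 genes denser in the CDS (3.15% of the genes tested) and 59 denser in the 3' UTR (0.684%), 3.84% in either direction. All 331 were among the 6579 genes. At an unadjusted p under 0.05 there were 1021 genes. When the CDS and 3' UTR columns were instead brought to a common level by TMM scaling, the median ratio moved by -0.37 on the log2 scale, and 284 genes were called (3.29%), 187 denser in the CDS (2.17%) and 97 denser in the 3' UTR (1.13%). limma on the log2 ratios called 0 genes, with 847 and 242 at an unadjusted p under 0.05, while DESeq2 called 635 and 120.

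The genes called denser in the CDS were long and well counted. Their median CDS was 3497.5 bases and their median 3' UTR 2803 bases, with 869 counts in the median gene. Those called denser in the 3' UTR had a median CDS of 1437 bases, a 3' UTR of 1630 bases and 488 counts. Over all 6579 genes the medians were 1830 bases, 1636 bases and 170 counts. Calls depended on depth: 29.5% of genes with 1000 or more counts were called, against 0.056% of those with 50 to 99 counts. The SD of the log2 ratio between the 3 libraries had a median of 0.63 in the first of these bins and 2.60 in the other, while the median ratio itself was 0.54 and 0.62. In 314 of the 6579 genes, a single library held over 80% of the counts.

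**Figure D2:**
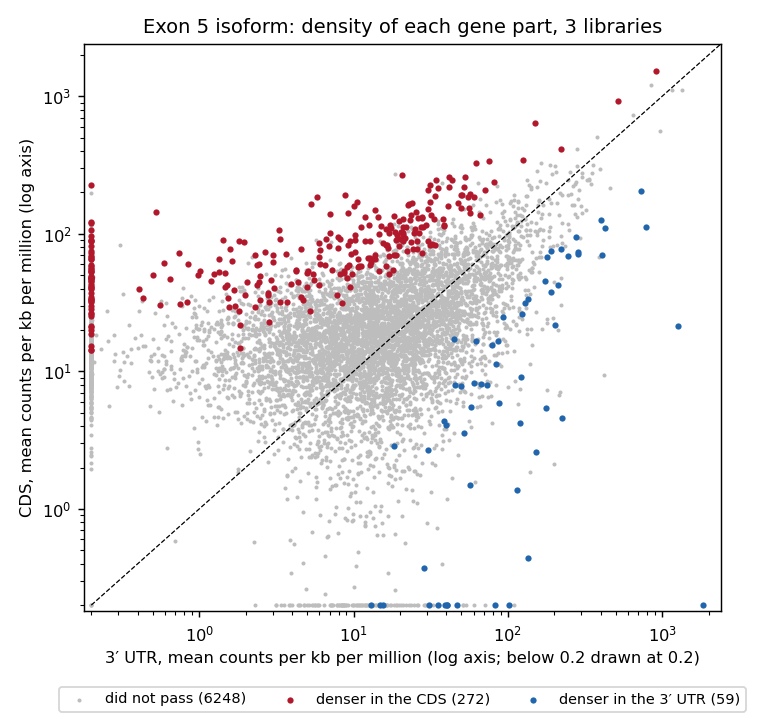
Each point is a gene: mean CPM per kilobase in the CDS (y axis) against the 3' UTR (x axis) over the 3 exon 5 libraries, both on log axes, with values below 0.2 drawn at 0.2. Red points are the 272 genes called denser in the CDS, blue points the 59 called denser in the 3' UTR, grey points the genes that did not pass; the dashed line marks equal density.

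Chtop itself was denser in its CDS. The gene (ENSMUSG00000001017.15, chromosome 3, 90498539 to 90509527 in GRCm38.p6) has a CDS of 831 bases and a 3' UTR of 2557 bases. The CDS had 169, 114 and 259 counts in the exon 5 libraries, and the 3' UTR had 78, 161 and 145. Per base the CDS was higher in all 3 libraries, with log2 ratios of 2.74, 1.12 and 2.46. The fitted log2 ratio was 2.11 (SE 0.61, adjusted p = 0.019), and it passed in 6 of 11 alternative settings. With counts summed, the log2 ratio was 2.12 here, 3.01 in the isoform lacking exon 5 and 3.06 in the inputs. The inputs held 63 CDS and 23 3' UTR counts of Chtop, 59 and 17 of them in input 1. The Chtop lines also express an added Chtop cDNA, and its share of the CDS counts was not tested.

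Called genes with 300 or more counts, both parts of 300 or more bases and the same sign in each library were ranked by fitted ratio. The 12 highest all had no count in the 3' UTR. A fitted ratio has no finite limit when a part is at 0, so this rank favours such genes. Spg11, for example, had a fitted log2 ratio of 9.9, but was at least 11.6-fold denser in the CDS with 3 counts in place of 0. Srcap, the ATPase of a chromatin remodeller that exchanges histone H2A.Z (ENSMUSG00000053877.12, chromosome 7, 127511983 to 127561219), had 543, 840 and 999 counts in its CDS of 9893 bases. Its 3' UTR of 2141 bases had 0, 0 and 0. Set against 3 counts over the libraries, its CDS was at least 172-fold denser (adjusted p = 1.6e-32). Ice1, a subunit of the little elongation complex that serves small nuclear RNA genes, had 277, 477 and 593 counts in the CDS and 0 in a 3' UTR of 2608 bases, at least 170-fold denser (adjusted p = 1.2e-19). Neither gene had a 3' UTR count in any exon 5 library. The summed inputs also had 0 in both 3' UTRs, with 60 CDS counts for Srcap and 72 for Ice1. These bounds compare parts within the exon 5 libraries only.

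The other genes of the 12 had several roles. Cdk12, a kinase of the RNA polymerase II tail, had 287, 195 and 204 CDS counts and 0 in its 3' UTR, at least 85.1-fold. Tab2, an adaptor of the kinase Tak1, had 132, 251 and 129 CDS counts and 0 in its 3' UTR, at least 85.0-fold. Nyap1, a neuronal adaptor of phosphoinositide 3-kinase, had 119, 206 and 39 CDS counts and 0 in its 3' UTR, at least 95.6-fold. The CDS counts of Nyap1 varied most among these 3 genes, while no exon 5 library placed a count in its 3' UTR. In the summed inputs, Cdk12, Tab2 and Nyap1 had 39, 11 and 7 CDS counts and 0, 13 and 0 in the 3' UTR. Ccdc88a (girdin, an actin-binding protein), Igsf9b (an adhesion molecule of inhibitory synapses), Eif2ak4 (the amino acid sensing kinase Gcn2), Spg11 (lysosome reformation), Nacad and C2cd3 (centriole appendages) had bounds of at least 11.6-fold to 37.9-fold. In Ccdc88a, Igsf9b and C2cd3, the 3' UTR was at 0 in all 9 libraries. The last of the 12, the unnamed-function gene Gm42669, rested on 1 library, with 292, 10 and 23 CDS counts.

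Of all 272 genes called denser in the CDS, 49 had a 3' UTR at 0 and 12 more had 1 to 3 counts there. Rbm33, an RNA-binding protein linked to mRNA export, had 373, 309 and 492 CDS counts against 0, 1 and 0 in its 3' UTR, a ratio of 872 with an exact 95% interval of 156 to 3.45e+04. Over the 6579 genes, the 3' UTR was at 0 in 445 (6.76%) and the CDS in 115 (1.75%). Of these, 354 and 88 were at 0 in the inputs too, and 161 and 34 in all 9 libraries. The 3' UTRs at 0 were short, with a median of 377 bases.

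At the other end, 59 genes were called denser in the 3' UTR, 12 of them with a CDS at 0. Grhl2, a transcription factor of epithelia (ENSMUSG00000022286.16, chromosome 15, 37232821 to 37363569), had 0, 0 and 0 counts in its CDS of 1972 bases and 79, 115 and 171 in its 3' UTR of 3013 bases. The 3' UTR was at least 79.6-fold denser (adjusted p = 7.25e-09). Psg16, a pregnancy-specific glycoprotein, had 0 CDS counts and 77, 105 and 193 in the 3' UTR, at least 55.1-fold. Nfia, a nuclear factor I transcription factor, had 0 CDS counts and 112, 73 and 164 in the 3' UTR, at least 25.2-fold. All 3 genes kept their counts in the 3' UTR in each library, and the summed inputs had 0 counts in each CDS and 9, 20 and 195 in the 3' UTR of Grhl2, Psg16 and Nfia.

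Lars2, the mitochondrial leucyl-tRNA synthetase, had the most counts of this group. Its CDS of 2824 bases had 71, 8 and 109 counts, and its 3' UTR of 989 bases had 933, 1190 and 1517. The log2 ratio was -6.22 (SE 0.55, adjusted p = 7.7e-08). The inputs leaned further to the 3' UTR, with 21 CDS counts and 21342 in the 3' UTR over their 3 libraries. Camk2a, a kinase of synaptic plasticity, had 0, 4 and 23 CDS counts and 65, 169 and 183 in the 3' UTR (log2 ratio -3.84, adjusted p = 0.001). Its 3' UTR was the denser part in each library, but the ranking admitted only genes with the same sign in each library. This agreement is therefore no separate evidence.

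The remaining members of the 12 lowest were Srd5a3 (a reductase for dolichol synthesis), Pacsin1 (membrane bending in endocytosis), Gm20716, Taf8 (a subunit of TFIID), Gpr162, Tctn1 (the ciliary transition zone) and Wipf2 (a partner of WASP proteins). Their log2 ratios ran from -6.40 to -3.65. In Pacsin1, 1 library held 92.2% of the counts, with 313, 5 and 22 in the 3' UTR. In Taf8, Srd5a3 and Wipf2 it was 77.4%, 74.1% and 70.6%. The RefSeq spans of Srcap, Ice1, Ccdc88a, Cdk12, Spg11, C2cd3, Grhl2, Psg16, Nfia, Lars2, Gm20716, Gpr162, Tctn1 and Camk2a overlap other genes. How strand was treated is not given, so part of their counts may belong to a neighbour. The same holds for other called genes named below, among them Dst, Cnot1, Huwe1, Scaf8, Eif4g3, Trp53bp1, Rbbp6, Hnrnpu, Eif4g1 and Ago2.

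**Figure D3:**
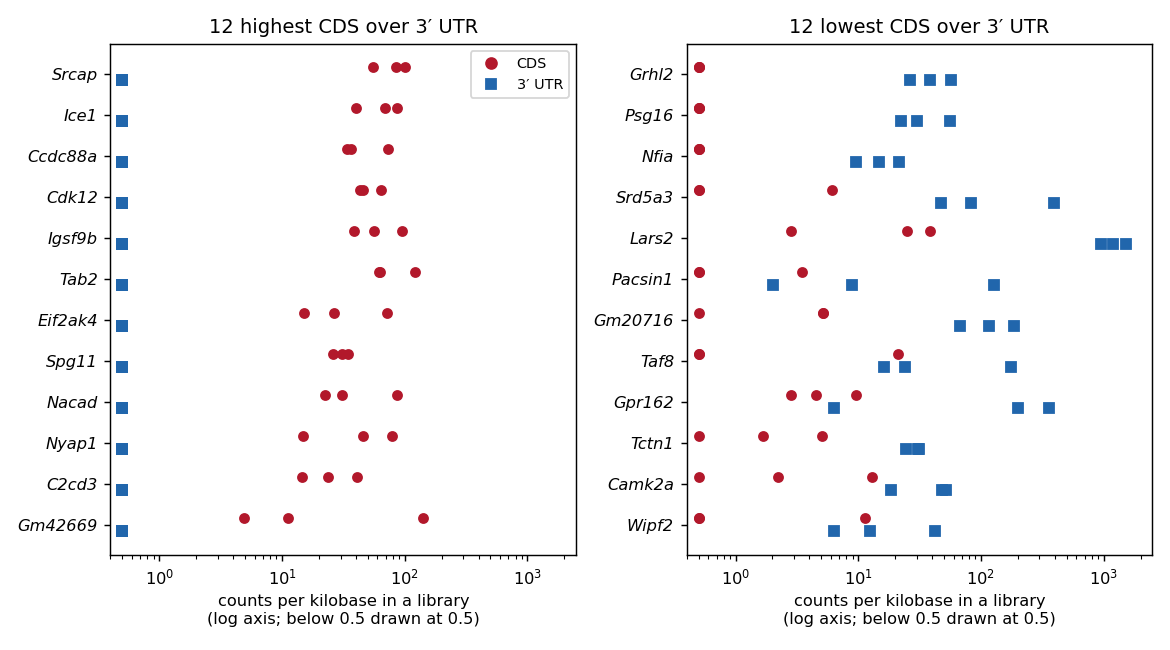
Counts per kilobase in each of the 3 exon 5 libraries (x axis, log scale, values below 0.5 drawn at 0.5). Shown are the 12 highest and the 12 lowest fitted CDS over 3' UTR ratios, with red circles for the CDS and blue squares for the 3' UTR. All 3' UTR points of the 12 highest sit at the left edge, and the 3' UTR points of Pacsin1 and Gpr162 lie far apart between libraries.

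Of the 6 genes with the most counts, Map1b and Racgap1 were called denser in the CDS, and Avl9, Irs2, Srrm2 and Plec did not pass. Map1b, a microtubule-binding protein of axons (ENSMUSG00000052727.6, chromosome 13, 99421464 to 99516602), had 4278, 6525 and 9925 CDS counts and 1496, 2252 and 3065 in the 3' UTR. Its log2 ratios of 0.76, 0.78 and 0.94 varied little, and the fitted value of 0.83 (SE 0.16) passed (adjusted p = 1.3e-05). Racgap1, a regulator of cytokinesis, had log2 ratios of 0.69, 0.79 and 0.71 and also passed (0.73, SE 0.21, adjusted p = 0.021), though in only 4 of 11 alternative settings. In both genes the CDS was the denser part in every library. Irs2, an adaptor of the insulin receptor, did not pass (0.49, SE 0.17, adjusted p = 0.087).

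Avl9, a protein of late secretory transport, had more counts in the 3' UTR but nearly equal densities. It had 1452, 2045 and 3157 counts in a CDS of 1978 bases, and 3880, 4679 and 7953 in a 3' UTR of 4709 bases. In CPM per kilobase these were 1117 ± 157 in the CDS and 1163 ± 110 in the 3' UTR (SD, n = 3). The log2 ratio was -0.06 (SE 0.15, adjusted p = 0.93), which puts the difference between parts below the spread between libraries. Fbxl20, the substrate receptor of a ubiquitin ligase, had more 3' UTR counts than CDS counts in each library (2042, 2309 and 4083 against 449, 671 and 1193 in the CDS), but its 3' UTR has 7389 bases and its log2 ratio was 0.39 (adjusted p = 0.41). Actn1, an actin crosslinker, did pass in the 3' UTR direction, with 91, 192 and 357 CDS counts, 166, 206 and 602 in a 3' UTR of 1058 bases and a log2 ratio of -1.95 (SE 0.46, adjusted p = 0.0012). Srrm2 (0.24), Plec (-0.16), Peg3 (-0.18), Prrc2c (-0.18) and Mycbp2 (0.05) were the other highly counted genes with a log2 ratio under 0.25 in size, and none passed.

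The ratio varied with 3' UTR length. In the exon 5 libraries, genes with 10 or more counts and a 3' UTR of 500 to under 1000 bases had median log2 ratios of 0.20, 0.09 and 0.31, and those with 4000 or more bases had 1.32, 1.40 and 1.66. The step between these bins was 1.12, 1.31 and 1.36, a mean of 1.26 ± 0.13 (SD, n = 3), and was positive in each library. With counts summed, the density of the 3' UTR was 14.0, 14.1 and 12.9 CPM per kilobase at 4000 or more bases, against 36.2, 35.1 and 32.1 at 500 to under 1000 bases. The CDS of the same genes had 42.8, 41.2 and 44.3 CPM per kilobase in the longest bin, against 35.6, 35.8 and 37.0 in the other. Between these bins the 3' UTR density was thus lower in every library, and the CDS density slightly higher.

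Genes with the shortest 3' UTRs, under 300 bases, also had high medians (1.23, 1.22 and 2.13). In that bin, 202 of 473 genes had a 3' UTR at 0, so that the 0.5 added and the short length weigh on the value, and with counts summed the log2 ratios were -0.0037, 0.10 and 0.24. In the isoform lacking exon 5 the step was 1.59, 1.52 and 1.64, each above every exon 5 library, a difference in means of -0.32 (exact permutation p = 0.1, n = 3 each, the smallest possible). In the inputs it was -3.02, -1.37 and -4.93 by medians, but 2.20, 2.20 and 2.06 with counts summed, where Lars2 alone held 57.2% to 62.2% of the 3' UTR counts in the bin of 500 to under 1000 bases. The comparison of this step with the inputs therefore changed sign with the measure. Across the 6579 genes, which share libraries and depth, the summed log2 ratio had a Spearman's rho of 0.15 with log2 3' UTR length. With log2 CDS length it was 0.12. Pearson's r was 0.056 and 0.14 for these pairs, and both lengths are terms of the ratio itself.

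**Figure D4:**
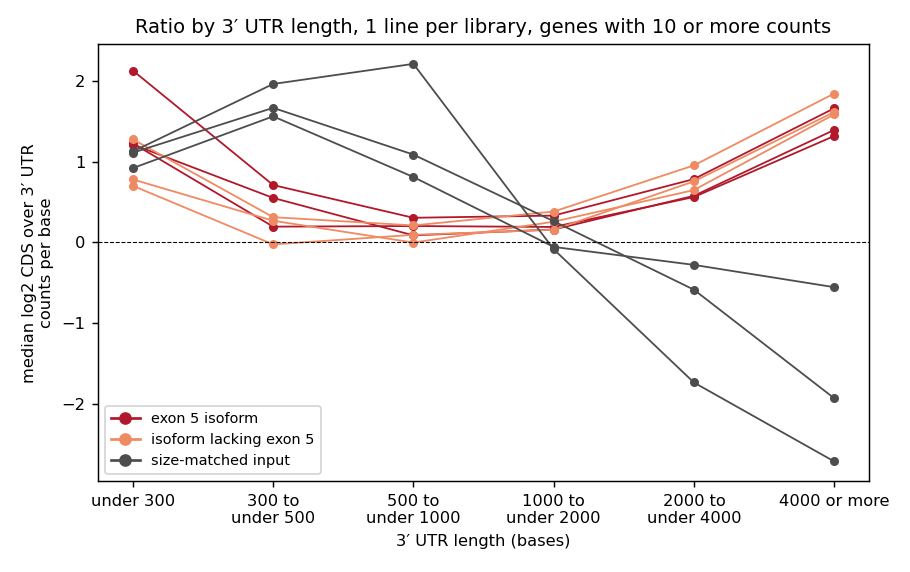
Median log2 CDS over 3' UTR counts per base (y axis) by 3' UTR length in bases (x axis), 1 line per library, for genes with 10 or more counts in that library. The exon 5 lines reach 1.32, 1.40 and 1.66 at 4000 or more bases, close to the lines of the isoform lacking exon 5, while the input medians fall below 0 there.

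Gene groups were then described by their tested members, beside all 6566 tested genes. Of these 6566, 272 were called denser in the CDS and 59 in the 3' UTR. Their median log2 ratio was 0.49 when a part at 0 was set to 3 counts. Group values below are from the exon 5 libraries, and their difference from the inputs was not tested. In the summed inputs, medians over genes with 10 or more counts there ran from -1.32 (synapses, axon guidance and channels) to 2.71 (oxidative phosphorylation). Over all 4366 such genes the input median was 0.015. Of 40 hnRNPs and splicing regulators, 11 were called denser in the CDS and 0 in the 3' UTR, with a median of 1.52. Sfpq, a paraspeckle and splicing protein, had 310, 322 and 530 CDS counts and 4, 12 and 4 in the 3' UTR (log2 ratio 5.22, SE 0.74, adjusted p = 7.4e-10). Hnrnpu, a chromatin-bound RNA-binding protein, had 274, 468 and 473 CDS counts and 77, 111 and 214 in a 3' UTR of 5400 bases (2.79, SE 0.51, adjusted p = 5e-06). Tardbp (2.39), an RNA-binding protein that represses cryptic exons, passed as well. Further genes called were Celf1, Ewsr1, Hnrnpd, Hnrnpr, Hnrnpul1, Khdrbs1 and Rbm33, while Hnrnph1 had a log2 ratio of -0.55 (adjusted p = 0.74).

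Of 19 cleavage and polyadenylation factors, 5 were called denser in the CDS and 0 in the 3' UTR, with a median of 1.59. Cpsf6, a subunit of cleavage factor I, had 264, 140 and 354 CDS counts and 37, 69 and 27 in a 3' UTR of 7040 bases (4.47, SE 0.75, adjusted p = 4.6e-07). Rbbp6, which activates cleavage of the pre-mRNA 3' end, had 248, 240 and 334 CDS counts and 2, 12 and 0 in a 3' UTR of 5669 bases (6.43, SE 0.94, adjusted p = 2.6e-09). The CDS was denser in each library for both. Scaf8, Sympk and Wdr33 passed too, and Pcf11 had a log2 ratio of 0.86 (adjusted p = 0.78).

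Of 21 mRNA export factors, the group to which Chtop belongs, 4 were called denser in the CDS and 0 in the 3' UTR. The 4 were Chtop, Mcm3ap, Thoc2 and Xpo1, and the group median was 0.62. Xpo1, an export receptor for proteins and some RNAs, had 1023, 822 and 1180 CDS counts. Its 3' UTR had 182, 100 and 71 (log2 ratio 2.60, SE 0.39, adjusted p = 6.6e-09). With counts summed, the log2 ratio of Xpo1 was 2.51 in the exon 5 isoform, 2.62 in the isoform lacking exon 5 and 2.58 in the inputs. The 3' UTRs of Thoc2, a TREX subunit, and Mcm3ap, which joins the TREX-2 complex, were at 0 and have 227 and 120 bases. Nxf1, the receptor to which TREX hands mRNA, had a log2 ratio of 0.97 (adjusted p = 0.65). Of 28 SR proteins and speckle scaffolds, 4 were called denser in the CDS and 0 in the 3' UTR. The 4 were Bclaf1, Luc7l2, Luc7l3 and Scaf8, and the group median was 0.36. The most counted ones, Srrm2 (0.24), Son (0.66), Acin1 (-0.35) and Srrm1 (0.68), did not pass.

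Of 41 chromatin regulators, 9 were called denser in the CDS and 1 in the 3' UTR (Kmt2c). The 9 were Arid2, Dnmt1, Ep400, Hdac5, Ncor1, Nsd2, Nsd3, Smarca4 and Tet3, and the group median was 0.98. Smarca4, the Brg1 ATPase, had 306, 304 and 457 CDS counts and 5, 0 and 5 in the 3' UTR (4.97, SE 0.79, adjusted p = 6.5e-08). Kmt2c, a histone H3 lysine methyltransferase, had 749, 1024 and 1554 CDS counts over 14877 bases and 25, 24 and 76 in a 3' UTR of only 205 bases (-1.30, SE 0.39, adjusted p = 0.028). Of 36 DNA repair and replication genes, 6 were called denser in the CDS and 0 in the 3' UTR. The 6 were Blm, Brca2, Fancm, Polq, Prkdc and Trp53bp1, and the group median was 1.88. Trp53bp1, which marks double-strand breaks, had 373, 491 and 791 CDS counts and 13, 21 and 42 in a 3' UTR of 3648 bases (3.82, SE 0.56, adjusted p = 4.6e-09).

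Of 162 Zfp zinc finger genes, 6 were called denser in the CDS and 0 in the 3' UTR. The 6 were Zfp142, Zfp207, Zfp423, Zfp638, Zfp865 and Zfp871, and the group median was 0.94. This called share was 3.70%, against 5.04% of all tested members. Zfp638 had 527, 403 and 611 CDS counts and 0, 5 and 15 in the 3' UTR (5.63, SE 0.67, adjusted p = 6.4e-14). Of 27 ubiquitin ligases and proteases, 4 were called denser in the CDS and 0 in the 3' UTR. The 4 were Birc6, Huwe1, Ube3a and Usp9x, and the group median was 0.29. Huwe1, a large ubiquitin ligase, had 2721, 2970 and 4000 CDS counts and 63, 103 and 67 in the 3' UTR (2.93, SE 0.27, adjusted p = 7.5e-25).

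Of 30 cytoskeleton and axon scaffold genes, 4 were called denser in the CDS and 1 in the 3' UTR (Actn1). The 4 were Dst, Kif5a, Map1b and Sptbn1, and the group median was 0.19. Of 36 genes of synapses, axon guidance and channels, 3 were called denser in the CDS and 1 in the 3' UTR (Snap25). The 3 were Dlg2, Gria2 and Slit2, and the group median was 0.54. Snap25, a SNARE protein of synaptic vesicle fusion, had 9, 41 and 32 CDS counts and 187, 238 and 282 in the 3' UTR (-2.50, SE 0.60, adjusted p = 0.0016). Of 28 RNA granule and neuronal RNA regulators, 2 were called denser in the CDS, and the group median was 0.25. They were Cnot1 (2.41), a deadenylase scaffold, and Ago2 (2.61), the microRNA-guided slicer with a 3' UTR of 11220 bases. Of 26 secretory genes, Slc3a2 (2.68) was called denser in the CDS and the integrin Itga6 (-1.68) in the 3' UTR. The group median was 0.29. As fitted medians, SR proteins and speckle scaffolds (0.27), cytoskeleton (0.12), secretory genes (0.23) and RNA granule genes (0.18) turned to -0.11, -0.27, -0.15 and -0.22 under TMM scaling.

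The remaining groups held 24, 28, 13, 10 and 18 tested genes. Of 24 translation factors, 2 were called denser in the CDS (Eif4g3 and Rack1) and 1 in the 3' UTR (Eif4g1). The group median was 0.74. The related scaffolds Eif4g1 and Eif4g3 thus passed in opposite directions: Eif4g1 had 906, 711 and 1304 CDS counts and 166, 558 and 168 in a 3' UTR of 456 bases (-1.45, SE 0.36, adjusted p = 0.0028), and Eif4g3 had 703, 407 and 670 CDS counts and 31, 18 and 78 in a 3' UTR of 2660 bases (2.97, SE 0.51, adjusted p = 9.5e-07). With counts summed, the log2 ratio of Eif4g1 was -1.69 in the exon 5 isoform, -1.07 in the isoform lacking exon 5 and -1.77 in the inputs. That of Eif4g3 was 2.75 with exon 5 and 2.22 without it, and the inputs had 108 CDS counts and 0 in the 3' UTR. The difference between these paralogs was not tested. Of 28 cell cycle and centromere genes, Knl1 and Racgap1 were called denser in the CDS, and the group median was 0.45. None passed among 13 cytosolic ribosomal protein genes (median 1.89), 10 genes of oxidative phosphorylation (median 1.77) and 18 intronless or immediate-early genes (median 0.80). Among the ribosomal protein genes, 7 of the 13 tested had a part at 0, and the median 3' UTR of all 14 members had 183.5 bases. Among the called genes named from the lists and ranks above, Polq passed in 1 of 11 alternative settings, Wipf2 and Kif5a in 3 of 11, and Kmt2c in 3 of 10. Celf1 and Khdrbs1 passed in 4 of 11, Mcm3ap and Wdr33 in 4 of 10, and Gria2, Luc7l2, Taf8, Tardbp and Zfp865 in 5 of 11.

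**Figure D5:**
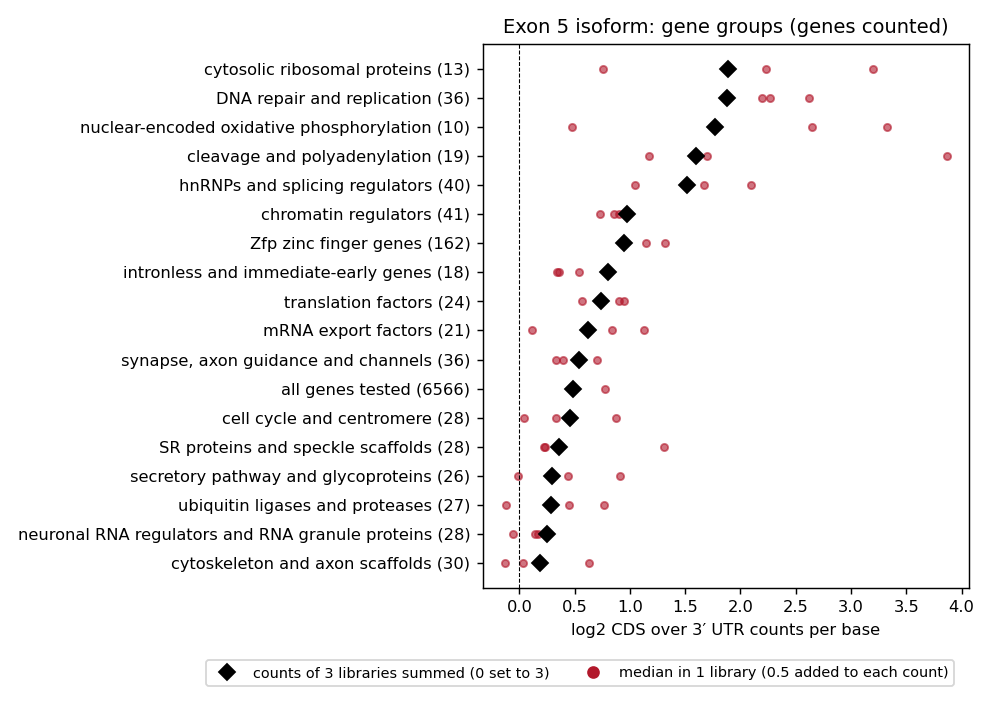
Median log2 CDS over 3' UTR counts per base (x axis) for each gene group (y axis, number of tested genes in parentheses); diamonds are medians with the 3 exon 5 libraries summed and a part at 0 set to 3 counts, circles are the medians in each library with 0.5 added to each count. The diamonds run from 0.19 in the cytoskeleton group to 1.89 in the ribosomal protein group, with 0.49 over all genes tested.

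The genes called in the exon 5 isoform were next read in the other libraries, which the calls did not use. In the isoform lacking exon 5, 270 of 271 tested genes of the CDS group had a ratio above 0, against 65.7% of all genes tested there, and 210 were called in that isoform's own fit (5.91% of the genes tested there were called denser in the CDS, 1.3% denser in the 3' UTR and 7.2% in either direction). These 210 were 77.2% of the calls of the exon 5 isoform and 40.8% of the 515 CDS calls of the other among the same genes. Of the 3' UTR group, 52 of 57 had a ratio below 0, and 26 were called, 44.1% and 24.8% of the calls. In the inputs, 146 of 232 genes of the CDS group (62.9%) had a ratio above 0, against 48.8% of all genes, and 33 of 41 of the 3' UTR group (80.5%) had one below 0. The inputs' own fit called 3 of 4653 genes (0.0645%).

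Between single libraries of the exon 5 isoform, the log2 ratios of the 4652 genes with 100 or more counts correlated at Pearson's r of 0.34 to 0.37, across genes that share the same part lengths. Summed over libraries, Spearman's rho with the isoform lacking exon 5 was 0.62 across 4102 genes, and with the inputs 0.13 across 2194 genes. At 100 or more counts in the inputs too, it was 0.27 across 566 genes.

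A direct test of the ratio between groups called few genes. Against the inputs, 1 of 5180 genes passed (0.0193%), D10Wsu102e, with a higher ratio in the exon 5 isoform, and 302 and 98 genes of the set had an unadjusted p under 0.05 in each direction. It had 46, 70 and 50 CDS counts and 383, 293 and 512 in the 3' UTR in the exon 5 isoform. In the inputs it had 0, 0 and 0 in the CDS and 712, 1137 and 691 in the 3' UTR. With 3 counts in place of 0, the ratio was at least 118-fold higher (adjusted p = 0.00046). Its listed 3' UTR has 122586 bases, more than the span of the gene in RefSeq (chromosome 10, 83360221 to 83368835). That length enters its ratio in each group and cancels in the difference. Whether the counts listed for the 3' UTR lie within the gene was not tested, and the difference rests on them. DESeq2 called 76 higher and 12 lower, and a fit with all 9 libraries called 12 and 1. Without input replicate 1 or 2, D10Wsu102e did not pass (adjusted p = 0.184 and 0.0844).

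Against the isoform lacking exon 5, 3 of 8437 genes passed (0.0356%), 2 with a higher ratio (0.0237%) and 1 with a lower one (0.0119%), and 117 and 125 genes had an unadjusted p under 0.05 in each direction. Zfp142, a zinc finger protein, had 130, 247 and 402 CDS counts and 0, 3 and 6 in a 3' UTR of 2253 bases in the exon 5 isoform. It had 194, 290 and 429 CDS counts and 48, 62 and 81 in the 3' UTR without exon 5. The 3' UTR counts did not overlap between the isoforms, and the ratio was 18.1-fold higher with exon 5 (log2 difference 4.43, SE 0.95, adjusted p = 0.024). It passed in 6 of 13 alternatives, with adjusted p of 0.013 to 1, and lost the call without replicate 1 of the exon 5 isoform (0.098) and without replicates 1, 2 or 3 of the other isoform (0.12, 0.29 and 0.061).

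Slc8a1, a sodium-calcium exchanger, had 305, 407 and 284 CDS counts and 0, 0 and 0 in a 3' UTR of 270 bases with exon 5. Without exon 5 it had 164, 242 and 332 CDS counts and 13, 7 and 5 in the 3' UTR. The ratio was at least 11.2-fold higher with exon 5 (adjusted p = 0.024) and passed in 3 of 12 alternatives, losing the call without any single library other than replicate 3 of the isoform lacking exon 5 (adjusted p of 0.050 to 0.29). Pacsin1 had 5, 0 and 0 CDS counts and 313, 5 and 22 in the 3' UTR with exon 5, against 0, 3 and 50 CDS counts and 0, 0 and 6 in the 3' UTR without it. Its log2 difference of -9.32 (SE 2.12, adjusted p = 0.029) rested on few counts outside 1 library and passed in 5 of 12 alternatives. It did not pass with the replicate block (adjusted p = 0.16), and without replicate 1 of the exon 5 isoform the adjusted p was 1, and without replicate 2 of the other isoform 0.29.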

How the data were processed

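Per the file headers, the deposited tables hold unnormalized counts of each gene part and a Total, beside a table of part lengths in bases. The submitters' processing notes name TopHat2, DESeq2 and mm10. How reads were filtered, collapsed, assigned to parts and treated for strand is not given, and intervals and floors therefore cover counting error only. The deposited sum equalled its parts, with 0 exceptions. For 15 symbols the tables disagreed, and 10 symbols were shared by several genes. In all, 27 columns of per-sample values were not used.

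The columns of input replicates 1 and 2 carry other replicate numbers than the labels, and were matched by line and reverse transcription primer. P-values measure the spread between these libraries.

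For each library, CDS and 3' UTR counts formed 2 columns, 6 for the 3 libraries of a group, with the logarithm of library total times part length as offset and the library as block. Genes needed both lengths and 15 counts over both parts, or 10 in each group for differences. Of the 6579 genes, 13 fell below that. The tool was edgeR 4.0.16 (robust quasi-likelihood F-test) in R 4.3.3, Benjamini-Hochberg adjusted, threshold 0.05. Alternatives used DESeq2 1.42.0, limma 3.58.1, TMM scaling, other filters, all 9 libraries and left-out replicates. Medians per library were compared by exact two-sided permutation (scipy 1.17.1).

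Where a part had 0 counts in a group, 3 counts over its 3 libraries gave a bound. With 1 to 3 counts, the exact 95% interval of the summed counts is given. The 3 counts correspond to 2.26 to 3.83 CPM in an exon 5 library and 17.3 to 39.7 in an input.

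The members and the 17 gene lists were chosen with earlier results of these data known. Named were Chtop, the 12 highest and 12 lowest called ratios with 300 counts, parts of 300 bases and 1 sign in 3 of 3 libraries, the 6 most counted genes, the 6 most counted with a log2 ratio under 0.25 in size, the called differences, up to 4 most counted genes per list, 3 genes on each side of 50 counts, and Avl9, Fbxl20 and Actn1. The called members of each list, and Rbm33 among them, were named after their values were seen. Coordinates refer to RefSeq's GRCm38.p6. A called list member is not reported here.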

Additional observations from a re-analysis of the deposited data

Results flagged for a closer look

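A test of the ratio between groups marked 4 genes. In D10Wsu102e the log2 CDS over 3' UTR ratio was higher in the exon 5 isoform than in the inputs by a fitted 18.89, a value that depends on how 0 CDS counts in the inputs are handled. Against the isoform lacking exon 5, the log2 ratio with exon 5 differed by 4.43 in Zfp142, by 9.18 in Slc8a1 (fitted against 0 counts in the 3' UTR with exon 5) and by -9.32 in Pacsin1. The median ratio per library over the whole gene set was 0.92 higher in the exon 5 isoform than in the inputs. By this measure every exon 5 library lay above 0 and every input below 0. However, 3323, 1620 and 4429 genes had no count in inputs 1, 2 and 3 and entered with the ratio of their part lengths alone. Among genes with 10 or more counts in a library, the input medians were 0.045, -0.041 and -0.39, so input 1 was not below 0. For the median over the whole set, the smallest exact permutation p of the design is 0.1, so the difference of 0.92 could not pass a threshold of 0.05.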

How the results depend on the processing

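The excess of the exon 5 isoform over the inputs in the median ratio kept its direction in every setting run, at 0.77 to 1.02 log2 units, or 0.82 to 0.97 without 1 replicate, except that it was 1.25 with counts summed over genes. The difference from the isoform lacking exon 5 (-0.014) turned to 0.056 over genes with 10 counts in all 9 libraries, and to 0.031, 0.035 and 0.065 without exon 5 replicate 1, exon 5 replicate 2 or replicate 3 of the other isoform (range -0.11 to 0.065). The settings with 10 counts in all libraries and without Lars2 and D10Wsu102e were chosen after seeing the data.

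The 272 genes called denser in the CDS became 635 with DESeq2, 0 with limma, 101 with all 9 libraries and 147 to 153 without 1 replicate. The 59 denser in the 3' UTR became 120 with DESeq2, 0 with limma, 97 with TMM scaling, 22 with all 9 libraries and 39 to 41 without 1 replicate. DESeq2 called 254 of the 272 and 52 of the 59, and the fits without 1 replicate shared 139 to 142 and 28 to 32. The cause of the gap between tools was not tested, and with 1 replicate fewer there were fewer libraries.

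Against the inputs, the calls of 1 higher and 0 lower became 76 and 12 with DESeq2, 12 and 1 with all 9 libraries, 0 higher with limma (434 at an unadjusted p under 0.05), and 0 to 1 higher without 1 replicate. Against the isoform lacking exon 5, the 2 higher and 1 lower became 1 and 0 with DESeq2, 0 and 0 with limma (159 and 166 at an unadjusted p under 0.05), with all 9 libraries and with a minimum of 30 counts, and 1 higher with parts of at least 300 bases. Without 1 replicate they were 0 to 7 higher and 0 to 3 lower.

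Replicate numbers were not used to pair the samples in the main fits. Deviations of same-numbered libraries of the 2 isoforms correlated at 0.025, 0.0047 and 0.030 over 4102 genes. Those of differently numbered libraries correlated at -0.029 to 0.0028. The median ratio was highest in replicate 3 of both isoforms (0.77 and 0.75), and an effect shared by replicate number was not tested for that median. With a replicate block, calls between isoforms were 2 higher and 0 lower, and against the inputs 1 and 0. With no replicate block in the exon 5 fit, 276 and 62 genes were called.

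None of the named genes that changed sign had passed. Under TMM scaling these were Srrm2 (-0.14), Mycbp2 (-0.34), Arid1a (-0.016), Celsr3 (-0.17), Cnr1 (-0.13), Top2a (-0.0426) and Tnrc6a (-0.0304). Without 1 replicate, the log2 ratio ranged between -0.0261 and 0.53 in Srrm2, -0.48 and 0.10 in Prrc2c, -0.0839 and 0.13 in Mycbp2, -1.38 and 0.0298 in Gcn1, and -0.87 and 0.20 in Ahnak. It ranged between -0.0130 and 0.55 in Celsr3, -0.0720 and 0.65 in Top2a, -0.31 and 0.18 in Numa1, -0.49 and 0.0648 in Vgf, -1.30 and 0.68 in Lrp1, and -0.0895 and 0.66 in Tnrc6a.

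Depth limits the input values, where 3 counts are 17.3 to 39.7 CPM.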
